A study of Caenorhabditis elegans with 9 samples.

Results

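Starved first-stage larvae (L1) of a Caenorhabditis elegans strain lacking oga-1 were compared with wild type larvae, across all genes of an Affymetrix array. The comparison used 6 of the study's 9 arrays, 3 labelled wild type and 3 labelled oga-1, and every probe set that is not a control: 22548 of 22625, of which 20766 carry 1 gene symbol and read 17118 genes. Larvae of all groups hatched without food in buffer and were collected after 48 h, so the wild type controls were starved as well. The mutant group carries the deletion allele oga-1(ok1207), 1 allele of 1 strain. The other 3 arrays hold ogt-1(ok430) larvae, which served to estimate the spread between arrays and for a direct comparison of both mutants. Per the labels the 3 arrays of each strain are biological replicates. Whole larvae were extracted, so fewer cells of a type and less RNA per cell cannot be told apart in any result that follows.

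O-GlcNAc is a single sugar that is placed on and removed from serines and threonines of nuclear and cytosolic proteins. OGT-1 is the enzyme that adds it, using a donor made from glucose, amino acids and other nutrients, and OGA-1 is the enzyme that removes it. Worms without either enzyme are viable, and both have been tied to fat and carbohydrate stores and to dauer formation, the larval diapause. First-stage larvae that hatch without food stop developing until they are fed, and live on stores laid down in the egg.

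Transcripts of the mutated gene did not tell the strains apart. The brightest of 3 oga-1 probe sets read 9.92, 9.33 and 8.99 on the wild type arrays and 9.64, 9.47 and 9.05 on the oga-1 arrays (log2 array values, replicates 1 to 3). The differences of the 3 probe sets, oga-1 minus wild type, were 0.03, -0.05 and -0.02 (adjusted p = 0.972, 0.953 and 0.986 in limma), and the groups overlapped in each. Where the probes lie relative to the deletion was not determined here, so these values do not check the labels. For ogt-1, the gene of the opposing enzyme, the brighter probe set read 11.86, 11.45 and 11.43 in wild type and 11.40, 10.93 and 11.14 in oga-1, a difference of -0.42 ± 0.16 (SE, adjusted p = 0.240). With the replicate number as a block this difference passed (adjusted p = 0.0441), and the groups did not overlap. That of the dimmer one was -0.40 ± 0.11 (adjusted p = 0.109, with the block 0.0644).

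The 9 arrays had nearly equal means, and with 3 arrays a strain the median standard error of the difference between oga-1 and wild type was 0.125 on the log2 scale. The oga-1 arrays were less alike than those of ogt-1. Replicate 2 lay apart from the other 8 on an axis that held 24.1% of the variance, and replicate 3 correlated with the other strains (mean r 0.9906 across probe sets) slightly above its own strain (0.9894). Control probe sets designed for yeast transcripts had strain means up to 6.26, and that level is taken as background here. Where the dimmer strain mean lies at or below it, the fold is written as "at least", a point estimate that assumes background adds to the signal.

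Few probe sets were called in the fit without a block. In limma 3167 of 22548 had an unadjusted p under 0.05. limma called 436 probe sets, 1.93% of those tested, at an adjusted p under 0.05. Of these 164 were higher in oga-1 (0.727%) and 272 lower (1.21%), and 81 differed at least 2-fold, 45 higher and 36 lower. The median size of a called change was 0.71. On all 436 the 3 oga-1 arrays lay on one side of the 3 wild type arrays, which also held for 16.5% of all probe sets. Read by the brightest probe set of each gene, 137 of 17118 genes rose (0.8%) and 225 fell (1.31%), 2.11% in all, and the median difference over all genes was 0.01. Gene lists are set beside these shares below. The lists and their members were chosen with earlier results of these data known, so the called share of a list is a description and no test.

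Arrays of wild type and oga-1 with the same replicate number deviated together from their strain means, with correlations across probe sets of 0.48, 0.43 and 0.36. With the replicate number as a block in a fit of these 6 arrays, 1316 probe sets were called (5.84%), 575 higher (2.55%) and 741 lower (3.29%), all of the 436 among them. At the gene level the block gave 464 higher (2.71%) and 623 lower (3.64%). Without the block the count ranged from 124, when oga-1 replicate 1 was left out, to 624, when oga-1 replicate 3 was left out. Falls outnumbered rises among the calls under each setting but 2, the 2-fold threshold above and the fit without wild type replicate 1, with 154 higher and 120 lower.

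**Figure D1:**
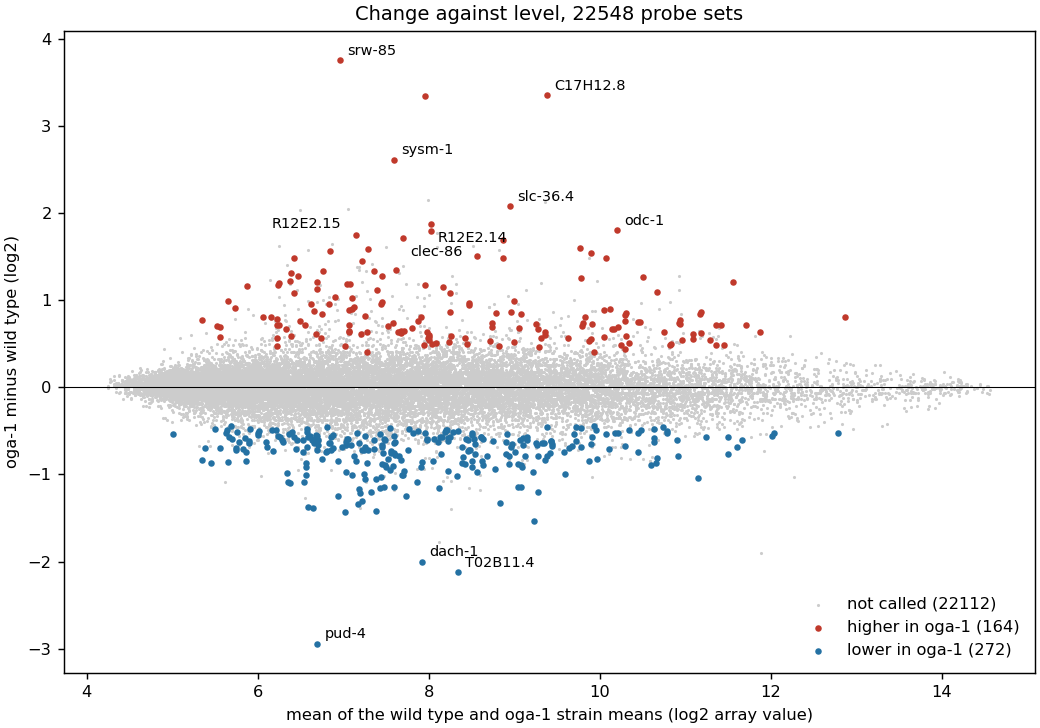
Difference between oga-1 and wild type (log2, y axis) against the mean of both strain means (log2 array value, x axis) for 22548 probe sets. Red points are the 164 probe sets called higher and blue points the 272 called lower. Most called changes lie within 1 log2 unit of 0, and srw-85, C17H12.8, sysm-1 and pud-4 stand farthest from it.

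The rise with the greatest array difference was that of srw-85, a member of the srw family of serpentine receptors, membrane proteins many of which are chemoreceptors. It read 5.13, 5.02 and 5.09 in wild type and 8.94, 8.63 and 8.93 in oga-1. The wild type values lie at background and the 3 oga-1 values are close together far above it. The rise was at least 13.5-fold (3.75 ± 0.11 log2, SE, adjusted p = 1.74e-08). On the ogt-1 arrays srw-85 read 5.13, 5.16 and 4.94, at the wild type level, and the test between the mutants gave 3.76 ± 0.11 (adjusted p = 8.67e-09). Of 114 srw genes measured, only srw-85 was called higher and only srw-71 lower (-0.57, adjusted p = 0.0280 in limma). The call of srw-71 failed without any wild type replicate, oga-1 replicate 1 or 3, or ogt-1 replicate 2 (highest adjusted p 0.116). Of the 114, 99 had a mean over the 9 arrays at or below background, so a missing call says little about them.

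C17H12.8, which encodes a secreted protein with a CUB-like domain, read 7.89, 7.67 and 7.56 in wild type and 11.16, 10.98 and 11.04 in oga-1. It rose 10.2-fold (3.35 ± 0.14, adjusted p = 2.95e-07) and stood high on all 3 oga-1 arrays. Several CUB-like genes are used as readouts of intestinal responses to infection. Neither CUB-like nor infection response genes were counted here as a full list, so the share of them that moved is not known. The CUB-like gene dod-22 went from 8.19, 7.83 and 8.08 to 9.82, 9.48 and 9.86, or 3.22-fold (1.69 ± 0.13, adjusted p = 8.51e-05). F55G11.7 and F55G11.8, chosen after their values were seen, rose 2.72-fold (adjusted p = 0.000282) and 2.78-fold (adjusted p = 0.000338). On chromosome IV of assembly WBcel235, F55G11.7, F55G11.8 and dod-22 follow each other, and each of the 3 had its lowest oga-1 array above its highest wild type array. Another CUB-like gene, dod-24, rose 1.98-fold (0.99 ± 0.16, adjusted p = 0.0128), a call that failed without oga-1 replicate 1 or wild type replicate 2 (highest adjusted p 0.0660). Of 9 dod genes, named for acting downstream of the FOXO factor DAF-16, 2 rose and 0 fell, 22.2% called against 2.11% of all genes. Their median was 0.11 against 0.01 over all genes.

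The gene sysm-1, long known as T24B8.5 and used as a reporter of the p38 MAP kinase immune pathway, read 6.84, 6.15 and 5.86 in wild type and 9.14, 8.84 and 8.71 in oga-1. The groups lie far apart although the wild type arrays spread over about 1 unit. Its rise was 6.12-fold (2.61 ± 0.22, adjusted p = 0.000160), but the wild type mean of 6.28 lay barely above background and 2 wild type arrays lay below it, so the size of the fold is uncertain. The infection response gene irg-1, chosen after its values were seen, rose at least 2.30-fold, from 5.78, 5.80 and 5.36 to 7.02, 7.16 and 6.35 (1.20 ± 0.20, adjusted p = 0.0133). Its call failed without oga-1 replicate 1 (adjusted p = 0.0666). hpo-6, named for hypersensitivity to a pore-forming toxin when it is knocked down, rose at least 2.95-fold (1.56 ± 0.23, adjusted p = 0.00863).

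C-type lectins, a large family of secreted and membrane proteins many of which respond to infection, moved in both directions. Of 220 measured, 7 rose and 5 fell, 5.45% against 2.11% of all genes, with a median of 0.02. By the mean over the 9 arrays, 164 of the 220 lay at or below background, against 6782 of 17118 genes. clec-86 read 7.11, 6.60 and 6.82 in wild type and 8.68, 8.30 and 8.67 in oga-1, and rose 3.27-fold (1.71 ± 0.15, adjusted p = 0.000230). clec-174 went from 6.48, 6.48 and 6.52 to 8.55, 8.25 and 7.46, or 3.02-fold (1.59 ± 0.24, adjusted p = 0.00904), and its probe set is of a type whose probes can bind related transcripts. The oga-1 arrays differ among themselves here, with replicate 3 lowest. Smaller rises were those of clec-76 (0.81, adjusted p = 0.00904) and clec-150 (0.75, adjusted p = 0.00904). clec-52, bright in wild type at 11.95, 11.90 and 11.80, fell to 11.09, 11.01 and 11.23 (-0.77 ± 0.12, adjusted p = 0.00904). Without oga-1 replicate 1, 4 lectins rose and 2 fell.

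Lysozymes, saposin-like and related genes, and galectins held 2, 1 and 1 calls. These were 12.5%, 1.72% and 8.33% of each list, against 2.11% of all genes. Of 16 lysozyme genes, which encode enzymes that cut bacterial cell walls, lys-2 rose and lys-4 fell. lys-2 went from 8.54, 8.12 and 8.43 to 9.27, 8.87 and 9.50 (0.85 ± 0.16, adjusted p = 0.0228), a call that failed without oga-1 replicate 1 or wild type replicate 2 (highest adjusted p 0.101). lys-4 went from 8.25, 7.62 and 7.88 to 6.84, 6.70 and 7.04 (-1.05 ± 0.15, adjusted p = 0.00792), with all oga-1 arrays below all wild type arrays. Of 58 saposin-like, thaumatin and antimicrobial peptide genes only spp-6, a saposin-like gene, passed, with a fall of 2.31-fold from 7.95, 7.80 and 7.64 to 6.39, 6.54 and 6.84 (adjusted p = 0.000919). The galectin lec-7, of a family of sugar-binding proteins, rose 1.76-fold (0.82 ± 0.17, adjusted p = 0.0382), and with the block 5 of 12 galectins rose. This call failed without any wild type replicate, oga-1 replicate 1 or 2, or ogt-1 replicate 2 (highest adjusted p 0.118).

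The plot of values on each array shows how evenly the leading genes moved.

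**Figure D2:**
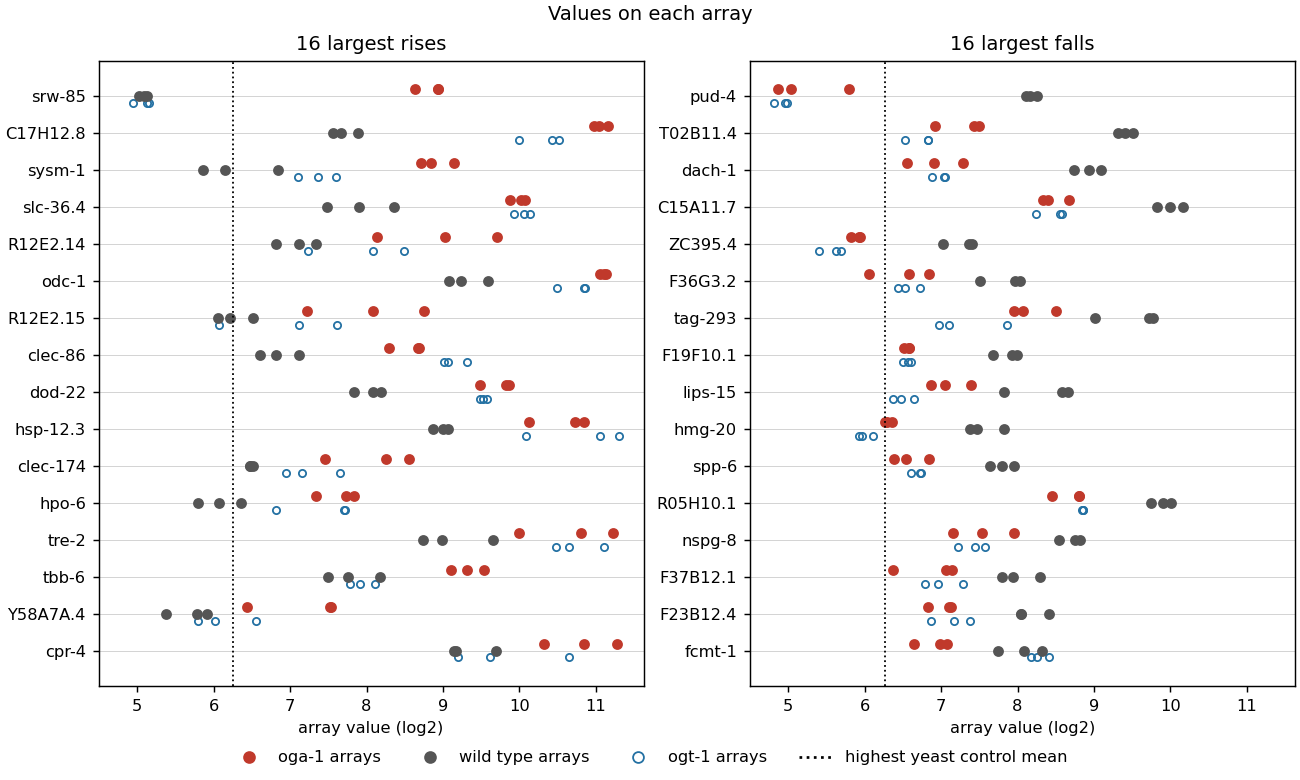
Log2 array values (x axis) of the 16 largest rises and the 16 largest falls (y axis, 1 gene a line) on each oga-1 (red), wild type (grey) and ogt-1 (open blue) array. The dotted line marks the background level of 6.26. The red and grey points of a gene do not overlap, as the rule for these genes requires, and for srw-85 and tbb-6 the ogt-1 points lie with the wild type.

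Among polyamine genes, odc-1, ornithine decarboxylase, the enzyme of the first step of polyamine synthesis, read 9.08, 9.23 and 9.59 in wild type and 11.11, 11.06 and 11.13 in oga-1. The 3 oga-1 arrays were nearly equal and lay far above wild type, a rise of 3.48-fold (1.80 ± 0.14, adjusted p = 0.000113). iff-1, a homologue of the translation factor eIF5A, which carries the polyamine-derived residue hypusine, rose 1.50-fold from 9.75, 9.68 and 9.86 to 10.28, 10.32 and 10.42 (0.58 ± 0.10, adjusted p = 0.0142). The call of iff-1 failed without oga-1 replicate 1 or wild type replicate 2 (highest adjusted p 0.0539). Of 15 genes in the polyamine list, these 2 rose and 0 fell, 13.3% called against 2.11% of all genes. The list was named for synthesis and transport, and iff-1 belongs to neither. Apart from it, odc-1 was the only member that passed. The list's median was 0.02.

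slc-36.4, of a family of proton-coupled amino acid transporters, went from 7.90, 7.48 and 8.36 to 9.88, 10.07 and 10.02, a rise of 4.22-fold (2.08 ± 0.18, adjusted p = 0.000177). The other 4 genes of the family were all below 0 and not called. Among them, chosen after their values were seen, slc-36.5 had a difference of -0.87 ± 0.24 (adjusted p = 0.0901) and slc-36.2 one of -0.59 ± 0.18 (adjusted p = 0.146). Both passed with the replicate block, at adjusted p = 0.00222 and 0.00871. Among 27 amino acid and neurotransmitter transporter genes of the aat, glt and snf families 0 passed in limma (8 at an unadjusted p under 0.05). With the block 1 was higher and 3 were lower.

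Carbohydrate genes that passed all rose. tre-2, a trehalase, which splits the storage sugar trehalose into glucose, went from 9.13 ± 0.48 to 10.67 ± 0.62 (SD, n = 3), or 2.91-fold (1.54 ± 0.30, adjusted p = 0.0253). Both groups spread widely, and the call failed without oga-1 replicate 1 or wild type replicate 1 or 2 (highest adjusted p 0.104). aagr-2, related to the lysosomal enzyme that breaks glycogen down, rose 1.67-fold from 10.56, 10.43 and 10.68 to 11.27, 11.19 and 11.43 (0.74 ± 0.11, adjusted p = 0.00836). Of 16 trehalose and glycogen genes these 2 rose and 0 fell, 12.5% called against 2.11% of all genes.

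In glycolysis and gluconeogenesis 2 of 21 genes rose and 0 fell (9.52% against 2.11% of all genes), with a median of 0.04. pck-1, phosphoenolpyruvate carboxykinase, which commits carbon to glucose synthesis, rose 1.65-fold from 11.65, 11.15 and 11.26 to 12.32, 11.92 and 11.99 (0.72 ± 0.15, adjusted p = 0.0307). aldo-1, an aldolase, rose 1.40-fold (0.48 ± 0.10, adjusted p = 0.0388). The call of pck-1 failed without oga-1 replicate 1 and without replicate 2 or 3 of either other strain (highest adjusted p 0.129). That of aldo-1 failed without any array but ogt-1 replicate 1 (highest adjusted p 0.171). In limma 0 of 27 citric acid cycle genes passed (6 at an unadjusted p under 0.05, 2 with the block), and 0 of 67 genes of the respiratory chain and ATP synthase (4 and 1).

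Lipid genes that passed all fell. Of 26 lipase and lipase-related genes 3 fell and 0 rose (11.5% against 2.11% of all genes), although 16 of the 26 differences were above 0. lipl-5, a lysosomal lipase, went from 11.79, 11.75 and 11.84 to 11.15, 11.23 and 11.27 (-0.57 ± 0.09, adjusted p = 0.0127). It was even on the arrays of each strain, but the call failed without oga-1 replicate 1 (adjusted p = 0.0687). lips-10 fell 2.02-fold (-1.02 ± 0.16, adjusted p = 0.0127), and lips-15 fell 2.39-fold from 7.82, 8.58 and 8.66 to 7.05, 6.87 and 7.39 (adjusted p = 0.0128), a call that failed without oga-1 replicate 1 or wild type replicate 2 (highest adjusted p 0.0584). fat-4, a fatty acid desaturase of polyunsaturated fat synthesis, fell 1.43-fold (-0.52 ± 0.11, adjusted p = 0.0387), 1 of 25 genes of fatty acid synthesis, 18 of which were below 0. The enoyl-CoA hydratase ech-7 fell 1.48-fold (-0.57 ± 0.10, adjusted p = 0.0196), 1 of 40 genes of beta-oxidation. These calls were 4% and 2.5% of their lists, against 2.11% of all genes. The call of fat-4 failed without any wild type replicate, oga-1 replicate 1 or 2, or ogt-1 replicate 2 or 3 (highest adjusted p 0.0997), and that of ech-7 without oga-1 replicate 1 or wild type replicate 1 or 2 (highest adjusted p 0.0747).

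Small heat shock proteins, chaperones that hold unfolded proteins, had a median of 0.23 over 12 genes, with 9 of them above 0. hsp-12.3 read 8.98 ± 0.10 in wild type (SD, n = 3) and 10.73, 10.85 and 10.13 in oga-1, and rose 3.02-fold (1.60 ± 0.27, adjusted p = 0.0140). hsp-16.2, a classical heat shock reporter, went from 9.86, 10.53 and 9.25 to 11.19, 11.29 and 10.96 (1.26 ± 0.28, adjusted p = 0.0476). The wild type arrays of hsp-16.2 spread over more than 1 unit, and its 3 oga-1 arrays are close to each other. These 2 of 12 rose and 0 fell, 16.7% called against 2.11% of all genes. With the block 5 rose, among them hsp-12.6 (1.28 ± 0.36, adjusted p = 0.101 without and 0.00980 with the block) and hsp-16.41 (0.90 ± 0.26, adjusted p = 0.111 without and 0.00194 with the block). Without oga-1 replicate 1 or 2 the family had 0 calls. The call of hsp-12.3 failed without oga-1 replicate 1 or 2 or wild type replicate 2 (highest adjusted p 0.0677). That of hsp-16.2 failed without oga-1 replicate 1 or 2, ogt-1 replicate 2 or 3, or array 1 or 3 of wild type (highest adjusted p 0.152). Among 21 large chaperones 0 passed in limma (4 at an unadjusted p under 0.05, 1 with the block), with 17 above 0.

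In the unfolded protein response of the endoplasmic reticulum 2 of 26 genes rose and 0 fell, 7.69% called against 2.11% of all genes. Of the 26, 19 were above 0, with a median of 0.17. hsp-4, the BiP homologue that reports on this response, went from 9.48, 9.63 and 9.72 to 10.52, 10.76 and 10.21, or 1.85-fold (0.89 ± 0.19, adjusted p = 0.0388). This call failed without any wild type replicate or oga-1 replicate 1 or 2 (highest adjusted p 0.132). sel-9, of the p24 family of cargo proteins, rose 1.40-fold (0.48 ± 0.10, adjusted p = 0.0394), a call that failed without any array but oga-1 replicate 2 (highest adjusted p 0.154). The metallothionein mtl-2, a metal-binding protein of the intestine, rose 2.31-fold from 11.10, 10.91 and 10.84 to 12.25, 12.01 and 12.21 (1.21 ± 0.14, adjusted p = 0.00185), and both groups were tight.

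Among detoxification families, the 2 cytochrome P450s and the 2 UDP-glucuronosyltransferases that passed fell. The calls of glutathione genes and ABC transporters went both ways. Of 48 genes of glutathione S-transferases and glutathione synthesis, gst-38 rose and gst-33 fell (4.17% against 2.11% of all genes), and 31 were below 0 (median -0.07). gst-38 went from 7.96, 7.71 and 7.09 to 9.05, 8.78 and 8.40 (1.15 ± 0.21, adjusted p = 0.0204), and gst-33 from 7.06, 6.92 and 7.14 to 6.41, 6.28 and 6.45 (-0.66 ± 0.12, adjusted p = 0.0195). Both calls failed without oga-1 replicate 1 or 2, that of gst-38 also without wild type replicate 2 (highest adjusted p 0.0963) and that of gst-33 without wild type replicate 1 or 3 (highest adjusted p 0.0768). Of 73 cytochrome P450 genes, whose products oxidise foreign and internal compounds, 2 fell and 0 rose (2.74% against 2.11% of all genes). Under the block 6 were lower and 1 higher, and 42 of the 73 differences were below 0. Over all genes the block called 3.64% lower and 2.71% higher. cyp-32B1 went from 11.23, 11.21 and 11.21 to 10.58, 10.58 and 10.64, with hardly any spread within a strain (-0.61 ± 0.09, adjusted p = 0.00836). cyp-33C4 differed by -0.76 (adjusted p = 0.0235), a call that failed without oga-1 replicate 1 or wild type replicate 3 (highest adjusted p 0.112). Of 64 UDP-glucuronosyltransferases, which couple sugars to small molecules, ugt-46 and ugt-44 fell (-0.62 and -0.57, adjusted p = 0.0172 and 0.0263) and 0 rose. This was 3.12% called against 2.11% of all genes, with 9 lower and 1 higher under the block. Without oga-1 replicate 1 neither passed (highest adjusted p 0.0873 for ugt-46 and 0.116 for ugt-44), and ugt-46 also failed without wild type replicate 1 or 2, ugt-44 without oga-1 replicate 2 or wild type replicate 1 or 3. The ABC transporter pgp-5 rose at least 1.83-fold (0.87 ± 0.16, adjusted p = 0.0172), a call that failed without oga-1 replicate 1 or 2 or wild type replicate 2 or 3 (highest adjusted p 0.0852). Of 48 genes of its family it alone rose and haf-1 alone fell (-0.63 ± 0.12, adjusted p = 0.0190), the latter with both strain means at or below background. These calls were 4.17% of the family, against 2.11% of all genes. The call of haf-1 failed without oga-1 replicate 1 or 2, or array 1 or 3 of wild type (highest adjusted p 0.0816).

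**Figure D3:**
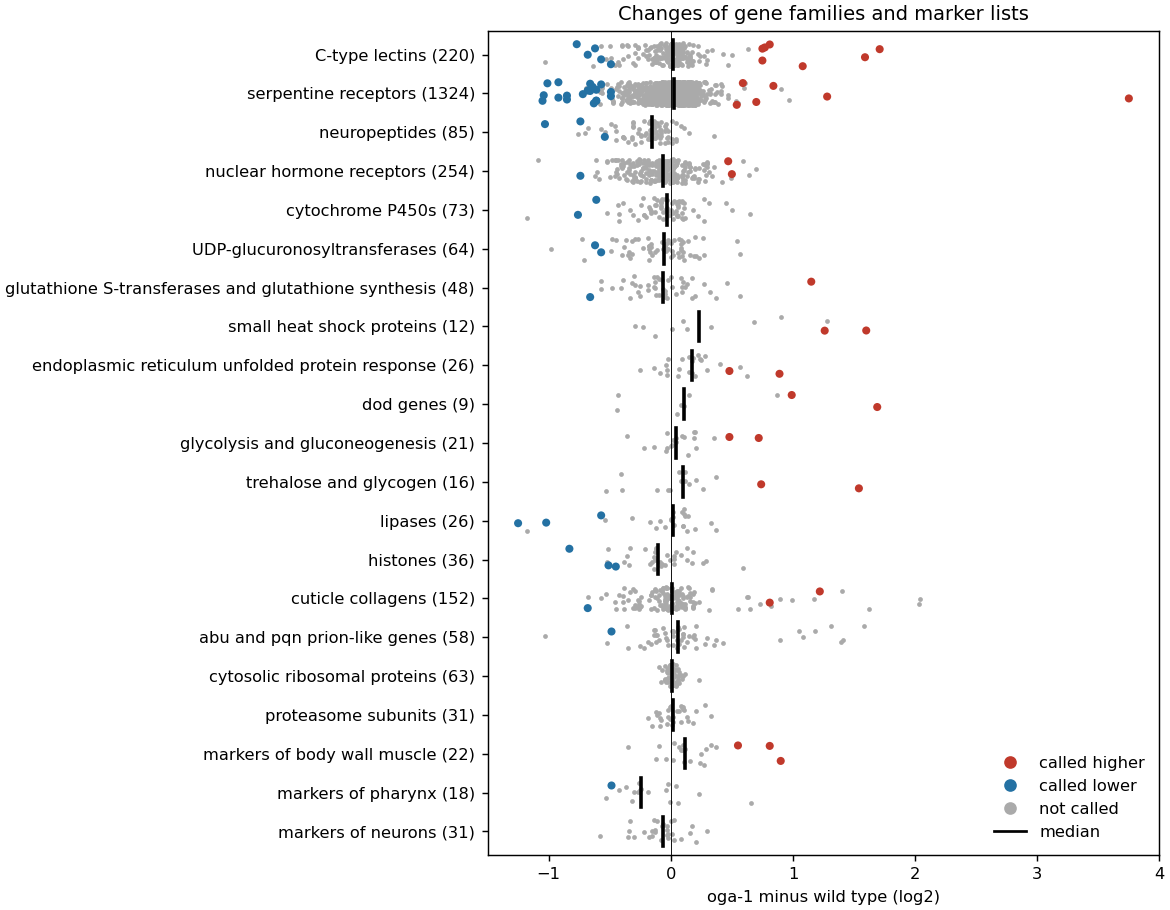
Difference between oga-1 and wild type (log2, x axis) for each gene of 21 families and marker lists (y axis, genes measured in parentheses). Red and blue points are genes called higher and lower, grey points were not called and black bars are medians. Most families are centred near 0 with a few called genes at their edges, and neuropeptides (median -0.15) and pharynx markers (median -0.24) lie lowest.

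The fall with the greatest array difference was that of pud-4, of a small family of nematode proteins, from 8.16, 8.11 and 8.25 in wild type to 5.03, 4.87 and 5.80 in oga-1. Every oga-1 array read below background, and the fall was at least 7.67-fold (-2.94 ± 0.19, adjusted p = 2.87e-05). T02B11.4 went from 9.31, 9.40 and 9.51 to 7.43, 6.92 and 7.50, a fall of 4.34-fold (adjusted p = 6.52e-05). dach-1 went from 8.93, 8.74 and 9.09 to 6.91, 6.56 and 7.28, a fall of 4.00-fold (adjusted p = 0.000128). C15A11.7 fell 2.88-fold (adjusted p = 0.000230) and F19F10.1 2.48-fold (adjusted p = 0.000113), the latter from 7.99, 7.93 and 7.68 to 6.58, 6.58 and 6.51. All 5 calls passed without each array in turn. On the ogt-1 arrays the same 5 genes read -3.25, -2.67, -1.93, -1.54 and -1.31 against the same wild type arrays, which both comparisons share, and the direct test between the mutants called none of the 5.

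Among regulators of small RNAs, 2 Argonaute-family genes fell. prg-1, the Piwi protein that works with piRNAs in the germline, read 9.60, 9.63 and 9.61 in wild type and 8.76, 8.05 and 8.61 in oga-1, a fall of 2.20-fold (-1.14 ± 0.17, adjusted p = 0.00833). sago-1, an Argonaute that binds secondary small interfering RNAs, went from 7.83, 8.36 and 7.89 to 7.08, 7.07 and 7.08, a fall of 1.93-fold (-0.95 ± 0.14, adjusted p = 0.00904). In both the lowest wild type array lay above the highest oga-1 array. These 2 of 42 genes of the small RNA pathway fell and 0 rose (4.76% against 2.11% of all genes), with a median of 0.01. Both calls passed without each array in turn. Of 30 germline markers prg-1 alone passed, and the median of that list was -0.02.

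Among chromatin genes, 3 of 36 histone genes fell and 0 rose (8.33% against 2.11% of all genes), with 24 of 36 below 0 (median -0.10). his-64 went from 9.66, 9.74 and 9.94 to 8.96, 8.65 and 9.22 (-0.83 ± 0.14, adjusted p = 0.0147), his-31 differed by -0.51 (adjusted p = 0.0338) and his-1 by -0.45 (adjusted p = 0.0488). Their probe sets can bind several near-identical histone genes, and all 3 calls failed without oga-1 replicate 1 or wild type replicate 3. The call of his-31 also failed without oga-1 replicate 2, ogt-1 replicate 2 or 3, or array 1 or 2 of wild type, and that of his-1 without each array in turn (highest adjusted p 0.149 for both, and 0.0661 for his-64). Among 61 genes of the cell cycle and DNA replication 0 passed in limma (8 at an unadjusted p under 0.05, 0 with the block), and pcn-1, the replication clamp, chosen after its values were seen, differed by -0.14 (adjusted p = 0.685). hmg-20, a gene of the HMG box family of DNA-binding proteins, fell 2.38-fold from 7.82, 7.38 and 7.47 to 6.36, 6.29 and 6.27 (adjusted p = 0.000383). lep-5, a long noncoding RNA of developmental timing, chosen after its values were seen, fell at least 2.14-fold from 7.10, 6.84 and 6.84 to 5.71, 6.03 and 5.75 (adjusted p = 0.000883).

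Serpentine receptors, the largest gene family of the worm, were read by 1324 genes, of which 6 rose and 19 fell, 1.89% against 2.11% of all genes. srv-11 fell 2.07-fold from 7.92, 7.88 and 7.54 to 6.76, 6.78 and 6.65 (adjusted p = 0.00185), and sru-1 fell 2.01-fold (adjusted p = 0.00196). sri-31 fell 1.80-fold (adjusted p = 0.00492) and srsx-32 at least 1.81-fold (adjusted p = 0.00150). odr-10, the receptor for the odour diacetyl, chosen after its values were seen, was far brighter, at 11.90, 12.02 and 11.98 in wild type and 11.38, 11.23 and 11.46 in oga-1. It fell 1.52-fold (-0.61 ± 0.10, adjusted p = 0.0126), a call that failed without oga-1 replicate 1 (adjusted p = 0.0516). The family had 1 rise and 7 falls without oga-1 replicate 1.

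Neuropeptide genes leaned down as a family: 75 of 85 were below 0 with a median of -0.15, against 8206 of 17118 below 0 and a median of 0.01 over all genes. Medians of the family relative to the wild type mean were -0.17, -0.28 and -0.04 on oga-1 replicates 1 to 3 and -0.04, 0.02 and 0.02 on the wild type replicates, so oga-1 replicate 3 lay at the edge of the wild type range. On ogt-1 replicates 1 to 3 the medians were -0.18, -0.21 and -0.12, so this lean was not particular to oga-1. Of the 85, 3 fell and 0 rose in oga-1 (3.53% against 2.11% of all genes). nlp-60 went from 8.19, 7.69 and 7.99 to 6.91, 6.91 and 6.98, a fall of 2.04-fold (-1.03 ± 0.16, adjusted p = 0.0109). nlp-81 fell 1.67-fold (adjusted p = 0.0286) and flp-8, of the FMRFamide-like peptides, 1.45-fold (adjusted p = 0.0407). The call of nlp-60 held without each array, that of nlp-81 failed without any wild type replicate, oga-1 replicate 1 or 2 or ogt-1 replicate 2 (highest adjusted p 0.0937), and that of flp-8 without any array but oga-1 replicate 3 (highest adjusted p 0.142). With the block 8 fell and 0 rose.

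Of 31 markers of neurons 0 passed in limma (3 at an unadjusted p under 0.05, 0 with the block), 23 were below 0 and the median was -0.06. Of 254 nuclear hormone receptors 2 rose and 1 fell (1.18% against 2.11% of all genes), with 161 below 0 (median -0.06). Of 81 homeobox genes 0 passed in limma (12 at an unadjusted p under 0.05, 6 with the block), with 56 below 0 (median -0.05). Over all genes 14.9% had an unadjusted p under 0.05.

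Most body wall muscle markers lay above 0. Of 22 measured, 3 rose and 0 fell (13.6% against 2.11% of all genes), with 18 above 0 and a median of 0.11. unc-54, the major myosin heavy chain of the body wall, read 12.70, 12.13 and 12.57 in wild type and 13.35, 13.24 and 13.24 in oga-1, a rise of 1.75-fold (0.81 ± 0.14, adjusted p = 0.0139). myo-3, the second myosin heavy chain of the same filaments, rose 1.86-fold (0.90 ± 0.20, adjusted p = 0.0490) and tni-1, a troponin I, 1.47-fold (0.55 ± 0.10, adjusted p = 0.0225). The call of unc-54 failed without oga-1 replicate 1 (adjusted p = 0.0692), that of tni-1 without oga-1 replicate 1 or 2 or wild type replicate 2 or 3 (highest adjusted p 0.0999), and that of myo-3 without any array but wild type replicate 1 (highest adjusted p 0.181). The medians of the list relative to the wild type mean were 0.26, 0.07 and 0.25 on the oga-1 arrays and 0.20, -0.17 and 0.00 on the wild type arrays, so these ranges overlap.

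Pharynx markers were mostly lower: 14 of 18 were below 0, with a median of -0.24. Relative to the wild type mean the list's median was -0.17, -0.32 and -0.25 on oga-1 arrays. On wild type arrays it was 0.10, -0.15 and -0.02, which does not overlap. The ogt-1 arrays gave -0.16, -0.33 and -0.20, so the lower median was not particular to oga-1. Of the 18, pqn-8 alone passed (-0.49 ± 0.10, adjusted p = 0.0346), a call that failed without array 1 or 3 of wild type, 1 or 2 of oga-1, or 2 or 3 of ogt-1 (highest adjusted p 0.137). Intestine markers had a median of -0.01 with mtl-2 as the only call of 19, hypodermis and seam markers a median of -0.06 with 1 fall of 20, and sperm markers a median of 0.03 with 0 calls of 28 in limma (2 at an unadjusted p under 0.05, 1 with the block). The part that tissue makeup has in the results above was not tested.

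Of 16 tubulin genes 2 rose and 0 fell (12.5% against 2.11% of all genes), with 13 above 0 and a median of 0.17. tbb-6, a beta-tubulin isotype, read 7.76, 8.18 and 7.50 in wild type and 9.31, 9.54 and 9.11 in oga-1, a rise of 2.84-fold (1.51 ± 0.17, adjusted p = 0.00136). tba-4, an alpha-tubulin, rose 1.54-fold (0.62 ± 0.11, adjusted p = 0.0179), a call that failed without oga-1 replicate 1 or wild type replicate 3 (highest adjusted p 0.0945). Cathepsin and aspartyl proteases, lysosomal and digestive enzymes, had 2 rises of 28 genes and 0 falls (7.14% against 2.11% of all genes). cpr-4, a cathepsin B-like protease, went from 9.69, 9.17 and 9.14 to 10.84, 10.32 and 11.27, or 2.79-fold (1.48 ± 0.33, adjusted p = 0.0448), a call that failed without any wild type replicate, oga-1 replicate 1 or 3 or ogt-1 replicate 2 (highest adjusted p 0.145). asp-7, an aspartyl protease, rose 1.89-fold (0.92 ± 0.17, adjusted p = 0.0198), a call that failed without wild type replicate 1 or 2 or oga-1 replicate 2 (highest adjusted p 0.0580).

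A minority of cuticle genes split the oga-1 arrays. Collagens build the cuticle and are made in a wave before each moult, and abu and pqn genes encode repeat proteins, several of which belong to the pharyngeal cuticle. Among the 210 genes of both lists, 18 lay at least 1 log2 unit above the wild type mean and above every wild type array on both oga-1 replicates 1 and 2. These 18 were picked from the values, so they get no test as a group. The full lists lay near 0, with medians of 0.03, 0.08 and -0.12 for collagens and 0.07, 0.09 and 0.02 for abu and pqn genes on oga-1 replicates 1 to 3. By the same cutoff on 1 array at a time, 7.24% of collagens lay high on replicate 1, 7.24% on replicate 2 and 0% on replicate 3, against 0.835%, 0.719% and 0.28% of all genes. For abu and pqn genes these shares were 13.8%, 13.8% and 0%. For the 18 picked genes, the median difference from the wild type mean was 1.60 on oga-1 replicate 1, 1.91 on replicate 2 and 0.21 on replicate 3. In all 18, replicate 3 was the lowest of the oga-1 arrays, and in 11 it lay within the wild type range. Wild type replicate 3 was likewise the lowest wild type array in all 18, at a median of -0.39.

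abu-14, chosen after its values were seen, lay at 8.14, 8.19 and 7.76 on the wild type arrays and at 10.28, 10.28 and 8.27 on the oga-1 arrays. col-165, chosen after its values were seen, read 6.23, 6.26 and 5.65 in wild type and 8.22, 9.29 and 6.74 in oga-1. The groups do not overlap, but replicate 3 lies nearer to wild type than to the other oga-1 arrays, and the difference of 2.04 ± 0.54 was not called (adjusted p = 0.0852). With the replicate block it passed (adjusted p = 0.00234), and over all settings its adjusted p ran from 0.00234 to 0.353. pqn-74, also chosen after its values were seen, read 7.13, 7.24 and 6.61 in wild type and 8.88, 8.83 and 7.22 in oga-1 (1.31 ± 0.38, adjusted p = 0.117, with the block 0.00355, 0.00281 to 0.392 over all settings). Here oga-1 replicate 3 lay between wild type replicates 1 and 2.

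Over the full lists, 2 collagens rose and 1 fell without the block (1.97% against 2.11% of all genes) and 12 rose and 5 fell with it. Of 58 abu and pqn genes 0 rose and 1 fell without the block (1.72%) and 8 rose and 3 fell with it. When oga-1 replicate 3 was left out, 12 collagens and 9 abu and pqn genes rose. The collagen rises without the block were col-142, even on all arrays at 7.58, 7.50 and 7.45 against 8.39, 8.27 and 8.30 (0.81 ± 0.10, adjusted p = 0.00249), and col-113, 1 of the 18 (1.22 ± 0.22, adjusted p = 0.0170). The call of col-113 failed without oga-1 replicate 1 or wild type replicate 3 (highest adjusted p 0.0692). Whether the larvae of replicate 3 differed in age or stage from those of replicates 1 and 2 was not tested.

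**Figure D4:**
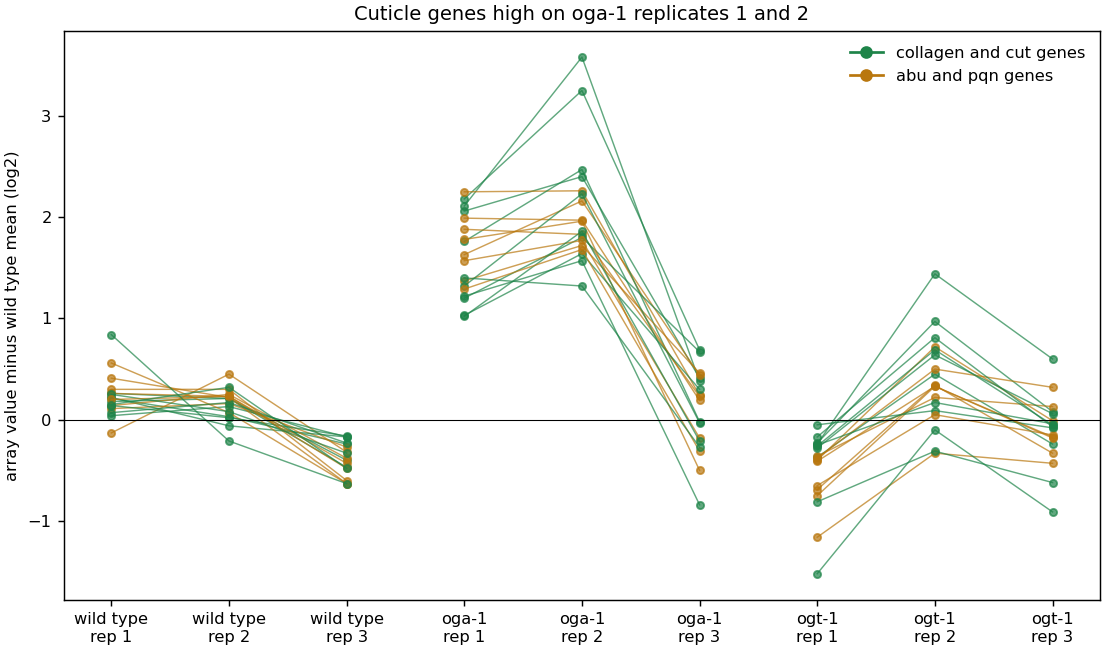
Array value minus the wild type mean (log2, y axis) of 18 cuticle genes on each of the 9 arrays (x axis), with a line joining the arrays of a strain for each gene. Green lines are collagen and cut genes and orange lines abu and pqn genes. The genes were chosen for high values on oga-1 replicates 1 and 2, and on oga-1 replicate 3 all 18 lie between -0.84 and 0.69.

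Several lists had 0 calls in limma. Cytosolic ribosomal proteins, read by 63 genes with a median of 0.01, also had 0 at an unadjusted p under 0.05 and 0 with the block. Proteasome subunits (31 genes, median 0.02), autophagy genes (28, median 0.07) and nuclear pore genes (41, median 0.09) had 1, 2 and 5 at an unadjusted p under 0.05 and 0 with the block. Among 24 insulin pathway components (median -0.06) and 24 insulin-like peptides (median 0.04), 2 each had an unadjusted p under 0.05, and the block called 0 and 1. In the list of O-GlcNAc cycling and hexosamine synthesis, the path that makes and uses the sugar donor, 3 of 10 genes had an unadjusted p under 0.05 and 2 passed with the block, ogt-1 and gfat-1 (0.45, adjusted p = 0.266 without and 0.0383 with the block), a homologue of the enzyme of the first step of hexosamine synthesis. The list's median was -0.04.

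Nutrient and growth signalling held 2 calls, 3.45% of TOR and AMPK genes and 3.33% of TGF-beta and steroid dauer genes, against 2.11% of all genes. mlst-8, a subunit of the nutrient-sensing TOR complexes, was the only call among 29 TOR and AMPK genes (0.56 ± 0.11, adjusted p = 0.0323). It failed without oga-1 replicate 1 or 2 and without replicate 2 or 3 of either other strain (highest adjusted p 0.102). Of 30 genes of the TGF-beta and steroid dauer pathway only sma-2, a Smad of body size signalling, passed (-0.59 ± 0.12, adjusted p = 0.0305), a call that failed without any wild type replicate, oga-1 replicate 1 or 3 or ogt-1 replicate 2 (highest adjusted p 0.135).

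Called genes were spread over all chromosomes, from 1.21% of the measured genes of chromosome I to 2.62% of those of chromosome V. On X, which carries oga-1, 15 genes rose and 36 fell, or 2.16%. Within 50 measured genes on each side of oga-1, 2 of 101 genes were called, 1 higher and 1 lower. Of the 137 genes that rose, 7 (5.11%) had a neighbour that also rose, against 1.56% of the other genes. Of the 225 that fell, 4 (1.78%) had a neighbour that also fell, against 2.63% of the other genes. Besides the CUB-like genes, the neighbours that rose were R12E2.14 and R12E2.15 on chromosome I and ZK1055.6 and ZK1055.7 on chromosome V. R12E2.14 went from 7.12, 7.34 and 6.81 to 9.02, 9.71 and 8.14 (3.65-fold, adjusted p = 0.0263) and R12E2.15 from 6.22, 6.52 and 6.06 to 8.08, 8.75 and 7.22 (3.36-fold, adjusted p = 0.0451), the latter with 2 wild type arrays below background. Their probe sets can bind related transcripts, and both calls failed without any wild type replicate or oga-1 replicate 1 or 2, that of R12E2.15 also without ogt-1 replicate 3 (highest adjusted p 0.102 and 0.149).

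The direct test of oga-1 against ogt-1 asked where the strain lacking the removing enzyme differs from the strain lacking the adding one. It called 116 probe sets (0.514%), 33 higher in oga-1 (0.146%) and 83 lower (0.368%). Among the genes called in oga-1 against wild type, 21 were also called against ogt-1, counted over all 1-symbol probe sets. In 14 of these 21, oga-1 was above both other strains. They include srw-85, C17H12.8 by its dimmer probe set (1.05 ± 0.14 above ogt-1, adjusted p = 0.00321), sysm-1 (1.54 ± 0.22, adjusted p = 0.00599) and tbb-6 (1.39 ± 0.17, adjusted p = 0.00174), whose calls held without each array. The arrestin-domain gene arrd-13 (0.74 ± 0.10, adjusted p = 0.00505) also differed, though its call against wild type failed without oga-1 replicate 1 (adjusted p = 0.0585). So did iff-1 (0.63 ± 0.10, adjusted p = 0.0112), a call that failed without ogt-1 replicate 2 or 3 (highest adjusted p 0.109). The brighter probe set of C17H12.8 differed by 0.75 (adjusted p = 0.0480), a call that failed without any array but wild type replicate 1 (highest adjusted p 0.253). Against wild type, ogt-1 itself rose in C17H12.8, by 2.60 and 2.30 for the brighter and dimmer probe set (adjusted p = 1.73e-06 and 2.58e-06 in limma). It also rose in sysm-1 (1.07, adjusted p = 0.0213), so both genes rose in both mutants, more in oga-1. For tbb-6 the ogt-1 difference was 0.12 (adjusted p = 0.826).

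In 4 of the 21 oga-1 lay between wild type and ogt-1. dod-24 read 9.62, 9.35 and 9.51 in oga-1 and 12.94, 12.99 and 13.06 in ogt-1, against 8.94, 8.33 and 8.24 in wild type (oga-1 minus ogt-1 -3.50 ± 0.16, adjusted p = 3.63e-07). gst-38 read 10.05, 10.37 and 10.29 in ogt-1 (-1.50 ± 0.21, adjusted p = 0.00572). F55G11.8 (-1.02, adjusted p = 0.00450) and clec-66 (-1.09, adjusted p = 0.00542) completed the 4. Against wild type the call of clec-66 failed without any oga-1 replicate, ogt-1 replicate 1, or array 1 or 2 of wild type (highest adjusted p 0.129).

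The other 3 were lower in oga-1 than in both strains: fcmt-1, C24H10.2 and ZK742.4. fcmt-1 read 7.75, 8.32 and 8.08 in wild type, 6.99, 7.08 and 6.65 in oga-1 and 8.25, 8.41 and 8.18 in ogt-1. It fell 2.21-fold from wild type (adjusted p = 0.00492) and differed from ogt-1 by -1.37 ± 0.16 (adjusted p = 0.000857). Of the 21 genes, 6 kept both calls without each array in turn: srw-85, C17H12.8, sysm-1, tbb-6, F55G11.8 and fcmt-1. Genes of these 21 outside the naming rule, which are listed in the plot of both mutants' differences, were chosen after their values were seen.

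**Figure D5:**
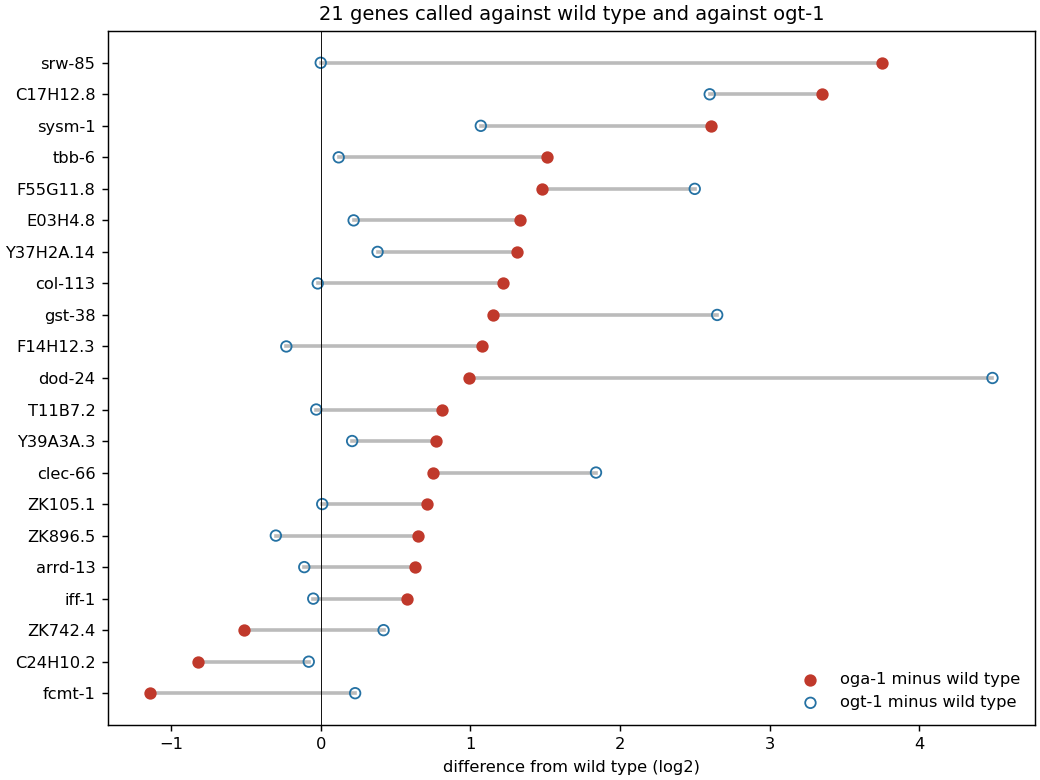
Difference from the same 3 wild type arrays (log2, x axis) of oga-1 (red) and ogt-1 (open blue) for the 21 genes called in oga-1 against wild type and against ogt-1 (y axis). For srw-85 the red point lies at 3.75 and the blue at 0, and for dod-24 the red point lies at 0.99 and the blue at 4.49.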

How the data were processed

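Per the labels' protocols, total RNA of whole larvae was extracted with Trizol, and biotin-labelled cRNA was hybridised to 1 array per sample. The authors deposited 1 table of log2 probe set values, normalised across arrays, with no offset or detection calls. Per the submitters' processing notes, Partek, RMA and MAS5 were involved, and their versions and roles are not stated there. Probe-level data were not used here. Gene symbols came from the platform annotation (887 probe sets have several symbols and 895 none) and gene order from the RefSeq table of assembly WBcel235, which held all 17118 symbols.

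The deposited values were fitted in limma 3.58.1 (R 4.3.3) with 1 coefficient per strain over the 9 arrays (6 residual and 5.65 prior degrees of freedom), followed by eBayes and Benjamini-Hochberg adjustment over 22548 probe sets, with calls at an adjusted p under 0.05. In lists and counts of genes, the brightest 1-symbol probe set stood for a gene. The p-values measure the spread between the samples labelled as replicates.

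The labels give replicate numbers but do not say what they share. Same-numbered wild type and oga-1 arrays deviated together (correlations 0.36 to 0.48), so the block result is printed beside the counts. Those of ogt-1 with wild type did not (-0.10, -0.02 and 0.00).

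The text names both enzyme genes, the 16 largest rises and 16 largest falls among called 1-symbol probe sets whose arrays do not overlap, and from each list at most 5 members, those of smallest p. Others are said to have been chosen after their values were seen. The members and lists were chosen with earlier results of these data known. Simulated data had 200 of 22548 probe sets changed 2-fold. There the fit of oga-1 against wild type recovered 97% of these, with 6.28% of its calls false. Of the 436 calls on the real arrays, 81 reached 2-fold, and the median size of a called change was 0.71 (log2). Both shares therefore describe 2-fold changes on simulated arrays and not the calls above, whose count ran from 124 to 624 without 1 array.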

Additional observations from a re-analysis of the deposited data

How the results depend on the processing

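The call counts moved with the spread estimate more than with the scaling. Of 436 probe sets called, quantile normalisation kept 391 and median centring 410, while the fit of the 2 strains alone kept 175 and that without variance moderation 56. The replicate block gave 1316 called (575 higher, 741 lower) on the 2 strains alone, 971 (438 and 533) with quantile normalisation added, an alternative chosen after seeing the data, and 749 (313 and 436) on all 9 arrays. The 2 strains alone without a block gave 187 (81 and 106), no variance moderation 69 (32 and 37), and leaving out the second wild type and second oga-1 array 138 (46 and 92). Stricter thresholds left 81 (30 and 51) at an adjusted p under 0.01 and 81 (45 and 36) at 2-fold. Leaving out 1 array gave 124 to 624 called, 38 to 280 of them higher and 86 to 344 lower; the lowest counts came without oga-1 replicate 1 and the highest without oga-1 replicate 3. For oga-1 against ogt-1, with 116 called, the block on 9 arrays gave 176, no moderation 51, the 2-fold threshold 74, and leaving out 1 array 76 to 197. No named probe set called against wild type changed sign under any of these settings, whereas uncalled differences near 0 did, such as those of the oga-1 probe sets without 1 array (for the brightest, -0.02 with all arrays and 0.15 without oga-1 replicate 3). The replicate block changed no call of a named gene from passing to not passing in the comparison with wild type, except that of his-1 with all 9 arrays (adjusted p = 0.0506 in limma) and those of fbxa-44 and nhr-225 with quantile normalisation added (0.0509 and 0.0523). Signal near background limits what can be read: of 8347 probe sets with both strain means at or below 6.26, 28 were called (0.335%), against 2.87% of the other 14201.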

Other observations

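Genes outside the families described above, chosen after their values were seen, also passed. math-47, which encodes a MATH domain protein, fell from 8.10, 7.83 and 7.94 to 6.95, 6.95 and 7.22 (-0.92 ± 0.12, adjusted p = 0.00349). btb-9, which encodes a BTB domain protein, fell from 8.05, 7.75 and 8.04 to 7.18, 6.76 and 7.21 (-0.89 ± 0.14, adjusted p = 0.0124). clpp-1, a protease of the mitochondrial matrix, fell 2.20-fold from 9.57, 10.10 and 9.27 to 8.62, 8.53 and 8.37 (adjusted p = 0.0144). enpp-1, of a family of nucleotide-cleaving enzymes, fell 1.92-fold from 9.32, 9.15 and 9.28 to 8.25, 8.16 and 8.51 (adjusted p = 0.00196). lsl-1 fell 1.96-fold (-0.97 ± 0.14, adjusted p = 0.00771). The oga-1 arrays of each of these 5 genes lay below all wild type arrays, and each call passed without each array in turn.

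aqp-3, a channel for water and glycerol, rose at least 2.24-fold from 5.52, 5.76 and 5.67 to 6.73, 7.21 and 6.52 (adjusted p = 0.0126), and this call too passed without each array. The neighbours ZK1055.6 and ZK1055.7 rose 2.03-fold (adjusted p = 0.0396) and 1.92-fold (adjusted p = 0.0488), but both calls failed without oga-1 replicate 1 or 2, wild type replicate 2 or 3 or any ogt-1 replicate, and that of ZK1055.6 also without wild type replicate 1 (highest adjusted p 0.161 and 0.191). Of 2 carboxylesterase genes, cest-32 rose 2.25-fold (adjusted p = 0.0289) and cest-13 fell 1.86-fold (adjusted p = 0.0197). The calls failed without oga-1 replicate 1 or wild type replicate 2, that of cest-32 also without oga-1 replicate 2 or wild type replicate 3 and that of cest-13 without wild type replicate 1 (highest adjusted p 0.122 and 0.0637).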
